A study of Mus musculus with 6 samples.

Results

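The genes of prostaglandin synthesis, signalling and breakdown were examined in differentiating C2C12 cells. This mouse line of muscle precursors proliferates in rich serum and fuses into myotubes in low serum. Members were 10 genes, namely Ptgs1, Ptgs2, Ptges, Ptgis, Ptgds, Ptger1, Ptger2, Ptger4, Ptgfr and Hpgd, and every probe set that the platform annotation assigns to one of them alone was kept. This gave 20 of the 45033 probe sets tested, for 9 of the 10 genes. No probe set here names Ptgs1 alone, so it was not analysed. RNA was hybridised to 1 Affymetrix mouse array per sample, with 3 arrays from cells transfected with PRDM2 shRNA (PRDM2 KD) and 3 from cells transfected with control GFPshRNA (GFP control). All 6 samples were taken 28 hours into differentiation in 2% horse serum. The labels call the arrays biological replicates, and give neither the shRNA sequence nor whether the transfected cells were a clone or a pool. The list was drawn up with results of this comparison known, so the members' differences between the groups are given as a description, and nothing is read from how many members passed a threshold.

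Prostaglandins are lipid signals made from arachidonic acid, which phospholipases release from membranes. The cyclooxygenases Ptgs1 and Ptgs2 turn it into prostaglandin H2, and terminal synthases make the separate products from that: Ptges makes prostaglandin E2, Ptgis makes prostacyclin and Ptgds makes prostaglandin D2. The products act on G protein-coupled receptors of nearby cells, and Hpgd, the 15-hydroxyprostaglandin dehydrogenase, inactivates them. In muscle, prostaglandins are known for roles in myoblast proliferation, survival and fusion and in regeneration after injury, where Ptgs2 is the inducible enzyme.

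The 6 arrays were alike in brightness, with median intensities between 10.7 and 11.4 units. GFP control replicate 2 stood apart from its group. Over the 4548 brightest genes, the median absolute deviation of its log2 difference was 0.07 from PRDM2 KD replicate 2, against 0.37 and 0.35 from GFP control replicates 1 and 3. PRDM2 KD replicate 2 in turn lay 0.27 and 0.25 from PRDM2 KD replicates 1 and 3, which lay 0.19 from each other. The labels give no reason for the likeness of the 2 arrays numbered 2. Values are therefore given with and without GFP control replicate 2, while PRDM2 KD replicate 2 was kept unless stated. GFP control replicate 2 was picked from these same data, so fits without it are a description. The brightest probe set of Prdm2, the targeted gene, read 88.6, 65.5 and 45.4 units on the PRDM2 KD arrays and 57.5, 73.9 and 43.9 units on the GFP control arrays. By this probe set alone Prdm2 mRNA did not separate the groups, so directions rest on the labels. The myogenic factors Myod1 and Myog and the muscle filament gene Des were bright on every array, at 700 to 955, 1703 to 2251 and 1297 to 1859 units. Of 45033 probe sets, 0 passed an adjusted p of 0.05 with limma (percent called 0; 1326 had an unadjusted p under 0.05), and of the 20 prostaglandin probe sets 0 did.

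Ptgs2, the inducible cyclooxygenase, varied most among the members. Its brighter probe set read 318, 103 and 103 units in PRDM2 KD replicates 1, 2 and 3, against 22.0, 109 and 19.4 units in GFP control replicates 1, 2 and 3. The 3 PRDM2 KD arrays thus lay far above GFP control replicates 1 and 3, but GFP control replicate 2 read slightly more than 2 of them, and the groups overlapped. On the quantile-normalised log2 scale the group means were 7.39 ± 0.78 in PRDM2 KD and 5.77 ± 0.99 in GFP control (SD, n = 3 each), a difference of 1.62 (SE 0.57). Without GFP control replicate 2 the difference was 2.19 (SE 0.41). The dimmer probe set read 31.2, 13.4 and 13.3 units in PRDM2 KD and 6.51, 16.5 and 7.25 units in GFP control. It ran in parallel with the brighter one (Pearson r = 0.96 over the 6 arrays), at a difference of 0.42 (SE 0.23), or 0.59 (SE 0.22) without GFP control replicate 2. These readings lie around the offset of 16 units added before the logarithm, which compresses the smaller value.

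**Figure D1:**
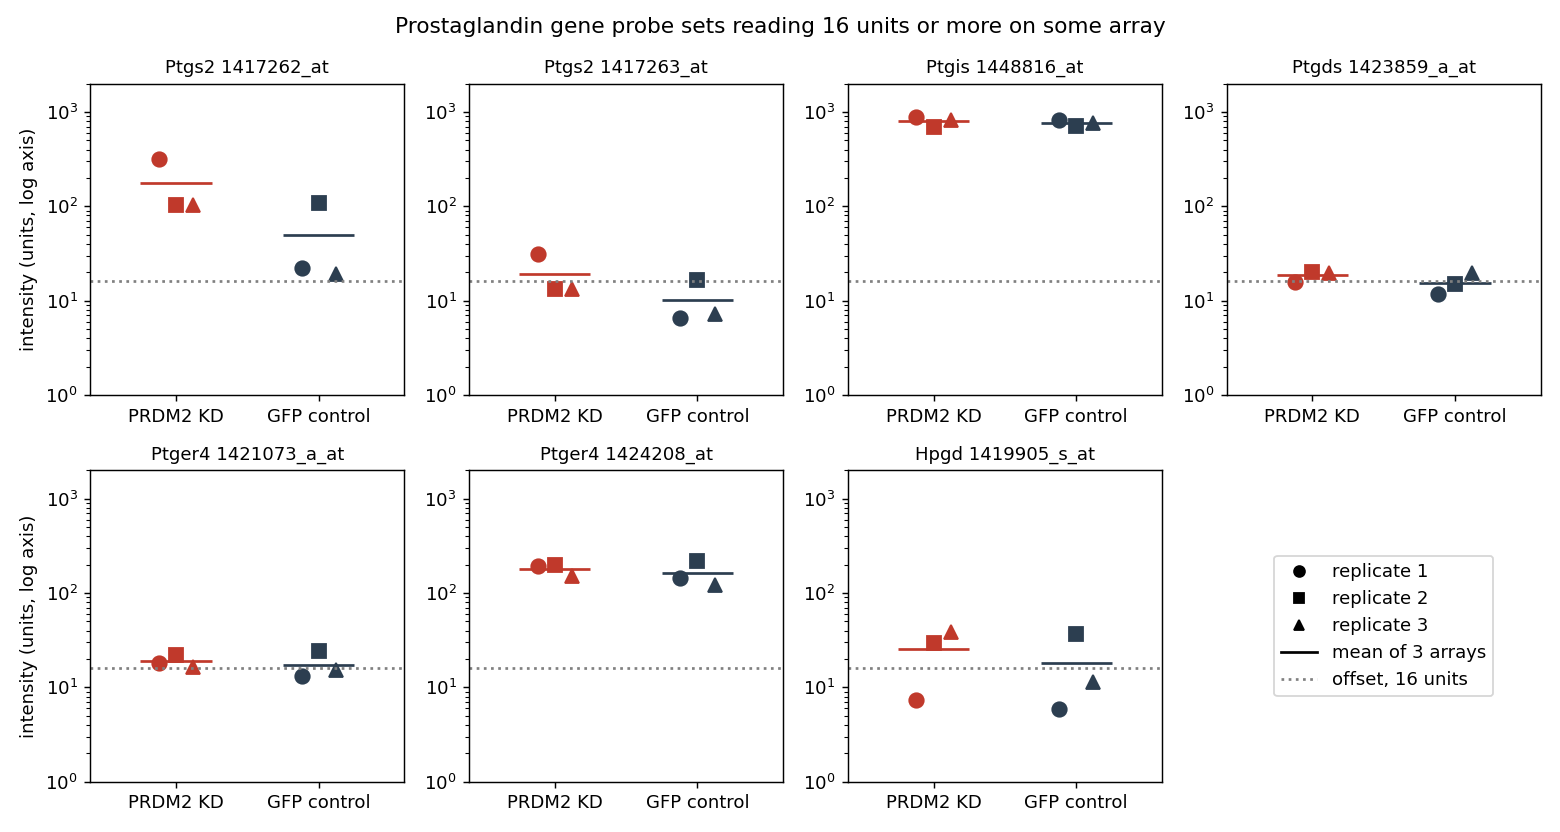
Deposited intensity (log axis) of the 7 prostaglandin probe sets that read 16 units or more on some array, with PRDM2 KD arrays in red on the left and GFP control arrays in dark blue on the right. Each symbol is 1 array, its shape gives the replicate number, lines are means of 3 arrays, and the dotted line marks 16 units. Ptgs2 is the gene with the widest spread, and the square of GFP control replicate 2 lies beside that of PRDM2 KD replicate 2.

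Set against the control of the same replicate number, Ptgs2 gave 3 unlike values. PRDM2 KD replicate 1 read 14.5 times GFP control replicate 1, PRDM2 KD replicate 2 read 0.944 times GFP control replicate 2, and PRDM2 KD replicate 3 read 5.34 times GFP control replicate 3. The 0.944 belongs to the pair of arrays whose whole profiles were nearly the same. With the replicate number as a block the difference stayed at 1.62 (SE 0.52), and 0 of 45033 probe sets passed (percent called 0). With both arrays numbered 2 left out and the block kept, the difference was 2.44 (SE 0.25). It rests on 2 pairs, which stood at 3.01 and 1.86. The SE is moderated by limma with the spread of other probe sets, so it does not measure the spread of these 2 pairs alone. The count of members past the threshold in that fit was 1, Ptgs2, beside 405 probe sets higher (percent called 0.899) and 312 lower over the whole array. That fit drops the pair in which Ptgs2 stood at -0.03, and as Ptgs2 was chosen on this comparison its count there is no test.

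**Figure D2:**
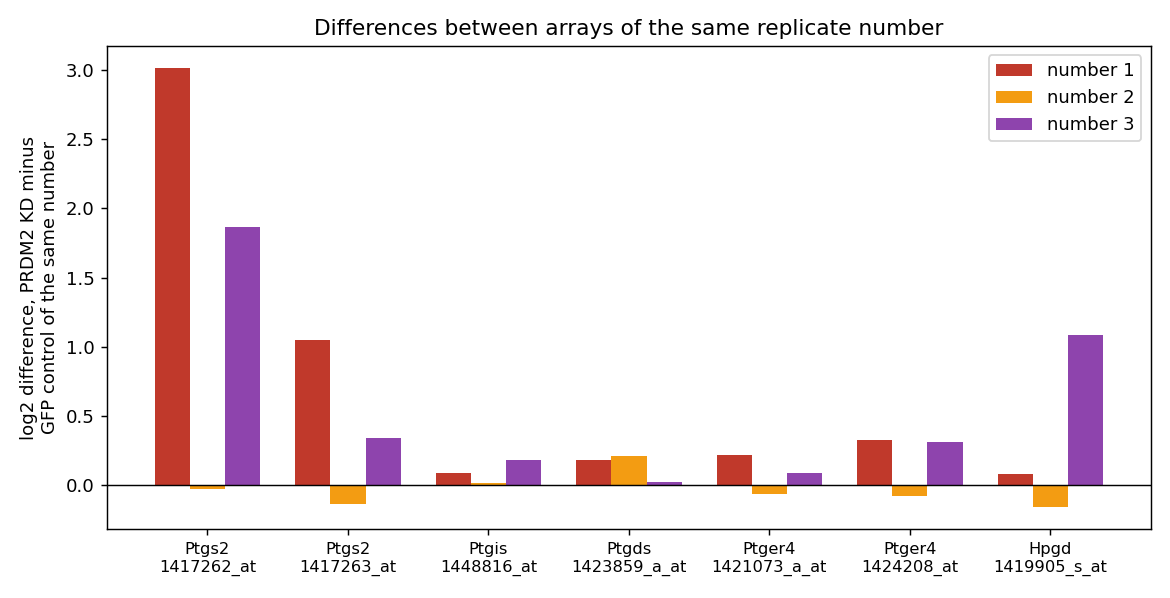
Bars give the log2 difference between the PRDM2 KD array and the GFP control array of the same replicate number, for the 7 prostaglandin probe sets that read 16 units or more on some array. The bars of the brighter Ptgs2 probe set stand at 3.01, -0.03 and 1.86 for numbers 1, 2 and 3, and Hpgd has its tallest bar, 1.08, at number 3.

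The promoters of Ptgs2, of the receptor gene Ptger4 and of Hpgd are shown because these 3 members differed most between arrays of 1 group. Sequences are from RefSeq (build GRCm38.p6), with 250 bases before and 50 after the annotated gene start, and 8 of the 10 members have one in the table, all but Ptgis and Ptger1. Each reads 5′ to 3′ on the gene's strand, and capitals mark matches on either strand to the cyclic AMP response element core CGTCA, the E-box CACGTG, the C/EBP palindrome TTGCGCAA, the NF-kB type pattern GGGNNNNNCC, the GC box GGGCGG or the TATA box motif TATAAA.
Ptgs2, chr1:150099781-150100080, plus strand: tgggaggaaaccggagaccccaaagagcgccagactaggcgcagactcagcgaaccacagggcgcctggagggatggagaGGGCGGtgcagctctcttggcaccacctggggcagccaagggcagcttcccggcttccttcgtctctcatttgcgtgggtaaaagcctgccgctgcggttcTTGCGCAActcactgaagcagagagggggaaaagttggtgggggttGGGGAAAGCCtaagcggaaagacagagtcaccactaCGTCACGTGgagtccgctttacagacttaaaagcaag
Ptger4, chr15:5244138-5244437, minus strand: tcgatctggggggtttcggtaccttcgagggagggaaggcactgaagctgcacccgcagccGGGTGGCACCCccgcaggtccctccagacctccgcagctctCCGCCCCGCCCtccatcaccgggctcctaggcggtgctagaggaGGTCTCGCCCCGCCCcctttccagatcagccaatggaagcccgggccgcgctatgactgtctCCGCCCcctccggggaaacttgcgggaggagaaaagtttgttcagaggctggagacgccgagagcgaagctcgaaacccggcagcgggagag
Hpgd, chr8:56294302-56294601, plus strand: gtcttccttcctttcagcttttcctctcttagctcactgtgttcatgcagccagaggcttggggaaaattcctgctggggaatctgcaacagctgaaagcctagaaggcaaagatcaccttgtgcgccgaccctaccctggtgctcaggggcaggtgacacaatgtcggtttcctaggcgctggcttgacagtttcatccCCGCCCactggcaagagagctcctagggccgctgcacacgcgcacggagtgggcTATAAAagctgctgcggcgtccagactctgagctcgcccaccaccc

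The Ptgs2 promoter held matches to 5 of the 6 patterns, all but TATAAA. The C/EBP palindrome lay 69 bases before the annotated start and is rare, with a match in 0.183% of the 32851 promoters of the same length. The core CGTCA, found in 20.8% of promoters, began 14 bases after the annotated start and overlapped CACGTG, found in 7.15%, which began at base 17. Ptgs2 was the only one of the 8 member promoters with any of these 3 patterns. Ptger4 had 4 GC boxes and 3 NF-kB type matches, of which 2 overlap each other, and Hpgd had 1 GC box and 1 match to TATAAA. The Hpgd match to TATAAA began 5 bases after the annotated start, not before it. GC boxes occur in 35.7% of all promoters, NF-kB type matches in 50.8% and TATA boxes in 13.6%. A match is a run of letters and was not tested as a binding site.

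The genes whose pattern over the 6 arrays was most like that of Ptgs2 were picked by Pearson r. The 807 candidates had a mean at or above that of the median gene and spanned at least 1 log2 unit. Below are the 3 genes with the highest r. They were Htr1b, a serotonin receptor, at r = 0.99, Prkg2, a cyclic GMP-dependent protein kinase, at r = 0.99, and Cotl1, an actin-binding protein, at r = 0.98. Prkg2 had log2 values of 9.57, 8.78 and 8.69 in PRDM2 KD and 8.05, 8.81 and 8.04 in GFP control. As for Ptgs2, PRDM2 KD replicate 1 was the highest array and GFP control replicates 1 and 3 the lowest. The correlations rest on 6 points and on the best of 807 candidates, and were picked for being high.

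**Figure D3:**
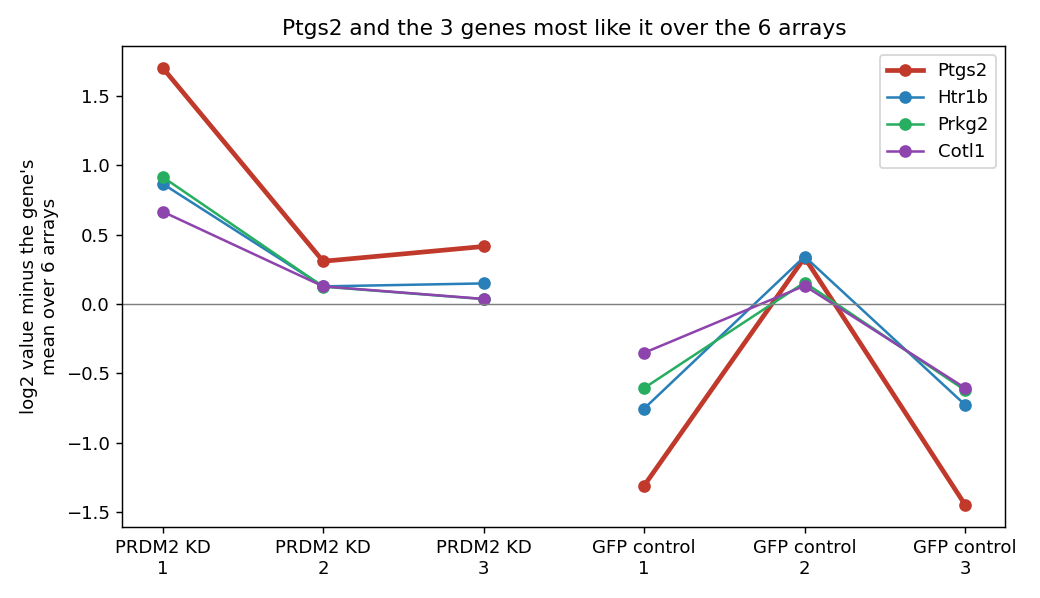
Log2 value minus the gene's own mean over the 6 arrays, for Ptgs2 (thick red) and the 3 genes most like it, with PRDM2 KD arrays on the left and GFP control arrays on the right. All 4 genes peak in PRDM2 KD replicate 1 and are lowest in GFP control replicates 1 and 3.

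Among the terminal synthases, Ptgis was bright and steady. Ptgis, which makes prostacyclin, read 888, 697 and 824 units in PRDM2 KD and 825, 705 and 769 units in GFP control. The groups overlapped throughout, at a log2 difference of 0.09 (SE 0.11), or 0.03 (SE 0.12) without GFP control replicate 2. The whole span of the gene over the 6 arrays was 0.38 log2 units, against 3.15 for the brighter Ptgs2 probe set. Ptgds, the prostaglandin D2 synthase, was dim. Its brighter probe set read 15.9, 20.1 and 19.8 units in PRDM2 KD and 11.7, 15.0 and 19.8 units in GFP control, a log2 difference of 0.14 (SE 0.11). The other Ptgds probe set read between 3.40 and 7.48 units. Ptges, the inducible prostaglandin E2 synthase, had 3 probe sets that read no more than 9.89 units on any array, with log2 differences between -0.02 and 0.02.

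Of the receptors, Ptger4, a receptor for prostaglandin E2 that raises cyclic AMP, was the only one bright enough to follow from array to array. Its brighter probe set read 192, 199 and 150 units in PRDM2 KD and 146, 217 and 121 units in GFP control. The highest array was GFP control replicate 2 and the lowest the other two controls, so the groups overlapped. The log2 difference was 0.19 (SE 0.18), and 0.39 (SE 0.11) without GFP control replicate 2. The second probe set read 18.3, 21.9 and 16.6 units in PRDM2 KD and 13.1, 24.1 and 15.2 units in GFP control, ran in parallel (r = 0.94 over 6 arrays) and differed by 0.08 (SE 0.13), or 0.21 (SE 0.10) without GFP control replicate 2. Across the 6 arrays the brighter Ptger4 probe set followed the brighter Ptgs2 probe set at r = 0.74, with GFP control replicate 2 high in both.

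The other receptors stayed near the floor of the scale. Ptger1 and Ptger2, further receptors for prostaglandin E2, read between 0.412 and 4.41 units over their 3 probe sets, and the 5 probe sets of Ptgfr, the receptor for prostaglandin F2alpha, between 0.368 and 7.59 units. One Ptgfr probe set was the only member probe set whose groups did not overlap. It read 1.93, 2.07 and 1.96 units in PRDM2 KD and 4.12, 3.28 and 2.62 units in GFP control, at a log2 difference of -0.11 (SE 0.07). Over all 45033 probe sets, 4.06% had every PRDM2 KD array below every GFP control array and 3.18% had every one above, where the members had 0. The other 4 Ptgfr probe sets had differences between -0.08 and 0.09, with 3 of the 4 above 0. Readings this low do not show whether the receptor was expressed, because no detection call was used here.

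Hpgd, which inactivates prostaglandins, varied between arrays without following the groups. It is described array by array as a choice made after its values were seen. Its brighter probe set read 7.37, 29.8 and 38.8 units in PRDM2 KD and 5.93, 36.5 and 11.5 units in GFP control. Both arrays numbered 1 were low and both numbered 2 were high, while PRDM2 KD replicate 3 stood above GFP control replicate 3. The log2 difference was 0.34 (SE 0.42), and 0.69 (SE 0.37) without GFP control replicate 2, where the groups still overlapped. With the replicate number as a block the same difference had an SE of 0.23. The pattern was not that of Ptgs2 (r = 0.28 over 6 arrays), since PRDM2 KD replicate 1 was the highest array for Ptgs2 and among the lowest for Hpgd. The second Hpgd probe set read no more than 3.13 units.

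Over all 20 probe sets, 16 had a log2 difference above 0, with a median of 0.05. The same median over all 45033 probe sets was -2.9e-05, and 50.0% were above 0. Of the 20, 13 read under 16 units on every array, and their differences lay between -0.11 and 0.14, so the offset sets their size. Without GFP control replicate 2, 14 of the 20 were above 0 and 0 passed (percent called 0.529). In that comparison of 3 arrays with 2, the PRDM2 KD arrays all lay above the controls in 5 of 20 probe sets, namely both of Ptgs2, both of Ptger4 and the dimmer one of Ptgds, and all below in 2 of the 5 Ptgfr probe sets. Over all probe sets the shares were 12.9% and 13.5%.

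**Figure D4:**
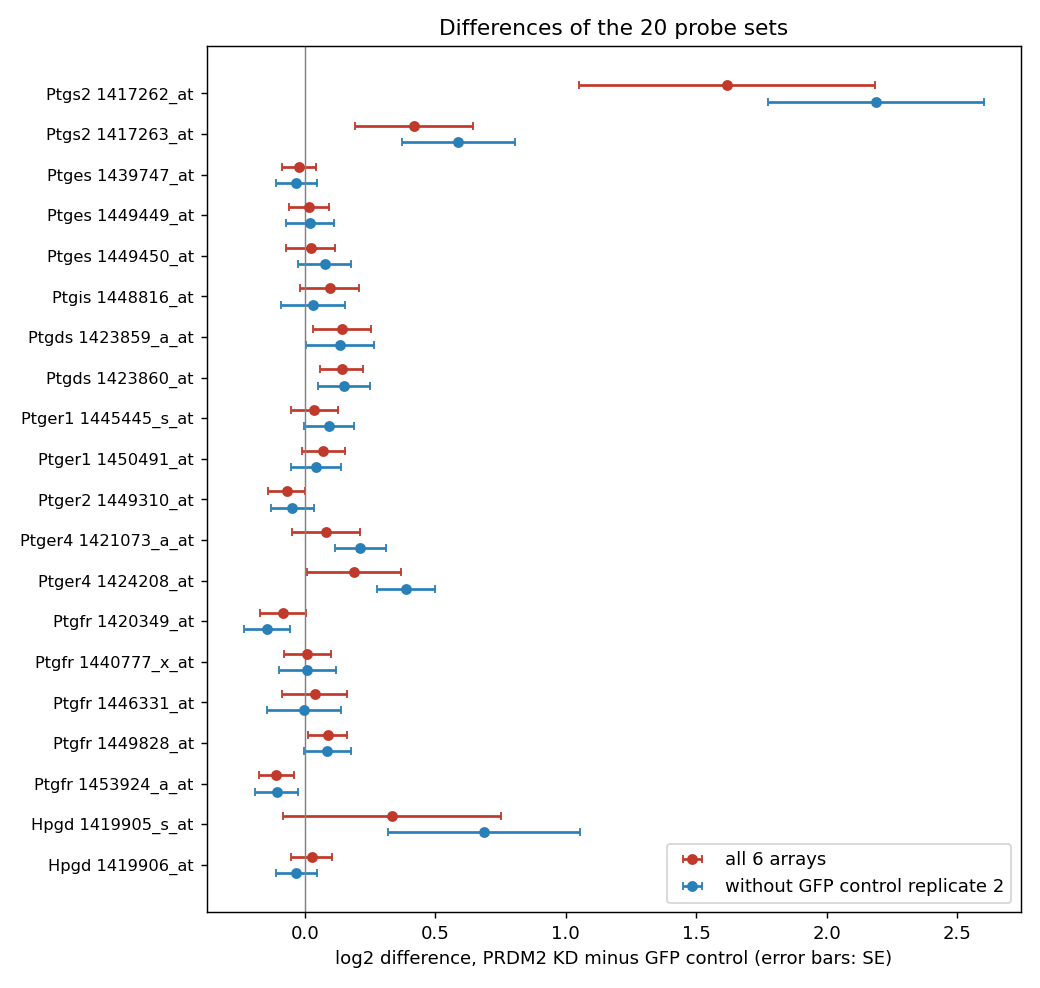
Log2 difference (PRDM2 KD minus GFP control) with its SE for each of the 20 probe sets, over all 6 arrays in red and without GFP control replicate 2 in blue. Both probe sets of Ptgs2 lie to the right of 0, and most others lie within 0.2 of it.

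Among genes that release arachidonic acid, Pla2g4a, Plaat3 and Mgll were, like Ptgs2, lowest in GFP control replicates 1 and 3. Of 20 measured genes 0 passed with all 6 arrays (percent called 0 of 18192 genes, by 1 probe set per gene), with a median log2 difference of 0.05 against -0.0033 over all genes. These 20 include Anxa1, which is not itself a releasing enzyme and stood at -0.11 (SE 0.08). Without GFP control replicate 2, Plaat3 and Pla2g4a were higher in PRDM2 KD and 0 were lower, beside 0.896% of all genes called higher and 0.704% lower. Pla2g4a, the cytosolic phospholipase that supplies the cyclooxygenases, read 96.4, 107 and 67.9 units in PRDM2 KD and 42.9, 114 and 36.6 units in GFP control. Its log2 difference was 0.53 (SE 0.32) over 6 arrays and 0.91 (SE 0.15) without GFP control replicate 2 (adjusted p = 0.047 with limma). Plaat3, a phospholipase abundant in fat, read 571, 476 and 487 units in PRDM2 KD and 297, 455 and 280.2 units in GFP control, with no overlap. Its difference was 0.59 (SE 0.17), and 0.79 (SE 0.10) without GFP control replicate 2 (adjusted p = 0.023 with limma). The array left out was picked on these same data, so the adjusted p-values of Pla2g4a and Plaat3 are no test. Mgll, the monoacylglycerol lipase, read 94.0, 38.7 and 19.6 units in PRDM2 KD and 4.33, 41.7 and 5.14 units in GFP control, at 1.04 (SE 0.51), or 1.51 (SE 0.41) without GFP control replicate 2, and its 4 probe sets ranged from 0.02 to 1.04 over all 6 arrays. Of the 20 genes, 15 were above 0 over all 6 arrays (48.8% over all genes), and 9 read under 16 units on every array. Pla2g6, a further phospholipase A2, ran the other way by the brightest of its 3 probe sets. It read 64.35, 58.0 and 62.3 units in PRDM2 KD and 110, 65.5 and 80.5 units in GFP control. Its difference was -0.34 (SE 0.17), or -0.51 (SE 0.12) without GFP control replicate 2. Pla2g6 was named after its values were seen.

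Other enzymes and receptors of the pathway showed smaller differences. Of 9 further synthases and reductases 0 passed, with a median of -0.07 and 3 above 0. Ptgr1, a prostaglandin reductase, read 288, 390.4 and 338 units in PRDM2 KD and 491, 425 and 373 units in GFP control, at -0.31 (SE 0.15). Tbxas1, the thromboxane synthase, stood at 0.26 (SE 0.20) and Ptges2, a further prostaglandin E synthase, at -0.16 (SE 0.10). Without GFP control replicate 2 Ptgr1, Tbxas1 and Ptges2 stood at -0.33, 0.40 and -0.23. Of 8 further receptors and transporters 0 passed (median -0.02). Ptgfrn, a membrane protein that associates with the Ptgfr receptor and lowers its ligand binding, was the only one that reached 64 units. It read 474, 524 and 528 units in PRDM2 KD and 337, 510.1 and 319 units in GFP control, at 0.43 (SE 0.18), and 0.62 (SE 0.13) without GFP control replicate 2. In the lipoxygenase and leukotriene branch 0 of 13 genes passed (median 0.03), with Alox5ap, the 5-lipoxygenase activating protein, at -0.36 (SE 0.20) and Lta4h, the leukotriene A4 hydrolase, at 0.002 (SE 0.09), or -0.44 and 0.04 without GFP control replicate 2. Without GFP control replicate 2 these 3 lists again had 0 genes called.

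Immediate early and NF-kB linked genes, a class to which Ptgs2 itself belongs and which holds factors known to induce it, were described in the same way. Of 29 measured genes 0 passed, 19 were above 0 and the median was 0.17. Over all genes 48.8% were above 0 and the median was -0.0033. With all 50 probe sets of the listed genes the list median was lower, at 0.08. Egr2, a growth factor-induced zinc finger factor, read 347, 179 and 81.3 units in PRDM2 KD and 18.5, 187 and 14.4 units in GFP control, at 1.69 (SE 0.78). Its relative Egr3 read 611, 442 and 173 units in PRDM2 KD and 70.7, 489.8 and 62.9 units in GFP control, at 1.33 (SE 0.75), with 1 of its 2 probe sets at -0.19. Ccn2, a matricellular growth factor, stood at 1.32 (SE 0.61). In each of these 3 genes GFP control replicate 2 lay among the PRDM2 KD arrays, as for Ptgs2. Without that array the list again had 0 genes called, at a median of 0.25. Egr2, Egr3 and Ccn2 then stood at 2.56 (SE 0.45), 2.18 (SE 0.42) and 1.88 (SE 0.50). Some bright genes of the list ran the other way. Dusp1, Jun and Rela stood at -0.63 (SE 0.27), -0.53 (SE 0.29) and -0.42 (SE 0.14) with all arrays. Without GFP control replicate 2 they stood at -0.89, -0.87 and -0.56. On the quantile-normalised log2 scale, every PRDM2 KD array lay below every GFP control array for Rela, and above for Egr1 and Ier2. On that scale 4.06% of all 45033 probe sets lay all below and 3.18% all above. In deposited intensity Egr1 and Ier2 overlapped. Egr1 read 711 units in PRDM2 KD replicate 3 against 762 in GFP control replicate 2. Ier2 read 148.2 units in PRDM2 KD replicate 2 against 148.6 in GFP control replicate 2. These further genes were named after their values were seen.

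**Figure D5:**
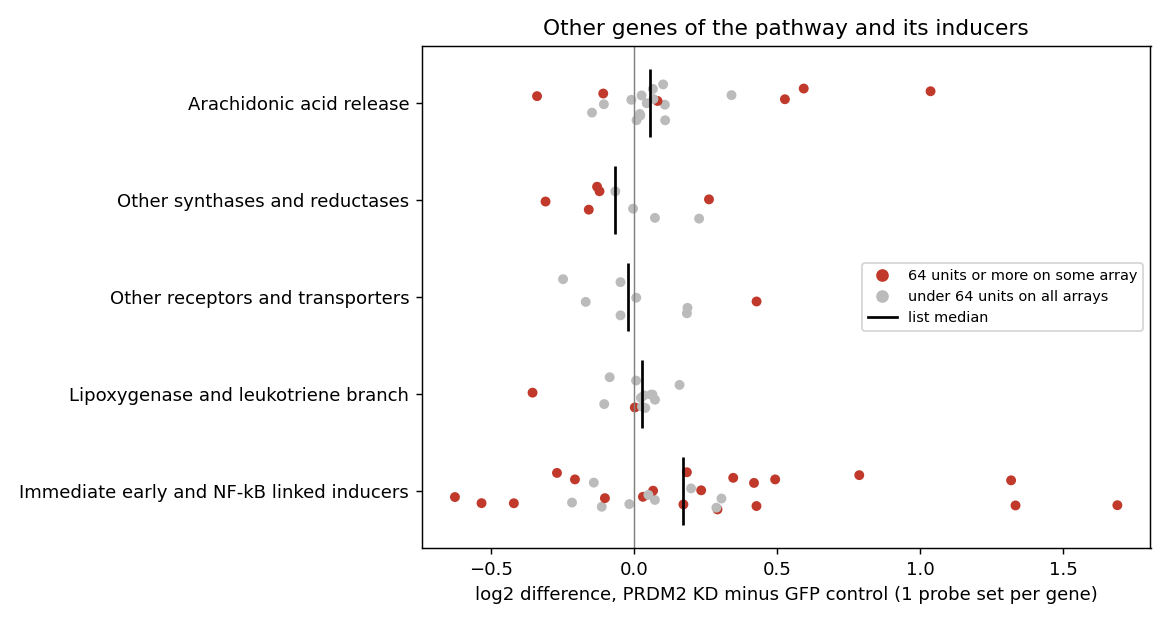
Log2 difference (PRDM2 KD minus GFP control, all 6 arrays) of each measured gene in 5 lists, by 1 probe set per gene. Red points read 64 units or more on some array, grey points less on all arrays, and black lines are list medians, which lie between -0.07 and 0.17.

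Markers of other cell types were compared on the same arrays. Of 7 leukocyte markers 5 read under 16 units on every array, Ptprc and Cd68 among them, and of 6 endothelial markers 5 did, Pecam1 among them. Summed intensities of the leukocyte markers were 92.3 to 189 units in PRDM2 KD and 98.2 to 167 units in GFP control, with Csf1r and Adgre1 the 2 that reached 16 units, and those of the endothelial markers 30.2 to 56.2 and 23.6 to 71.7 units. The 7 fibroblast and mesenchymal markers summed to 1067 to 1823 units in PRDM2 KD and 630 to 1641 units in GFP control, where GFP control replicate 2 gave the 1641. Col1a1, a chain of type I collagen, read 1054, 844 and 487 units in PRDM2 KD and 99.9, 849 and 90.8 units in GFP control, so it too was low in GFP control replicates 1 and 3 alone. Dcn, the matrix proteoglycan decorin, ran the other way, at 7.23, 13.7 and 19.6 units in PRDM2 KD and 176, 17.8 and 178 units in GFP control. Col1a1 and Dcn differed by 1.83 (SE 0.79) and -1.89 (SE 0.67) over 6 arrays, and by 2.80 (SE 0.25) and -2.74 (SE 0.19) without GFP control replicate 2. Of the 7 mesenchymal markers 0 passed with all 6 arrays, while without that array Col1a1 and Pdgfrb, a platelet-derived growth factor receptor, were called higher and Dcn lower (adjusted p = 0.010, 0.047 and 0.0068 with limma). Of 8 myogenic markers 0 passed with all 6 arrays, and without that array Myf5, a factor of undifferentiated myoblasts, was called lower, at -1.90 (SE 0.11, adjusted p = 0.0056 with limma), beside -1.32 (SE 0.46) over 6 arrays. These 4 were named after their values were seen. The array left out was picked on these same data, so their adjusted p-values are no test. The part of these markers in the differences of the prostaglandin genes was not tested.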

How the data were processed

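The authors deposited 1 intensity per probe set and array, linear in scale. GCOS and PLIER are named per the submitters' processing notes, whereas any scaling between arrays before deposit is a step not given in the sources used here. In all, the table held 45101 probe sets for 6 arrays and 0 other columns of samples. Left out were 64 control probe sets and 4 of Gngt1 that hold 14699, its Entrez number, in GFP control replicate 2. Gene names came from the platform annotation.

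Values were taken as log2(intensity + 16), and this offset understates the change of dim genes. The log2 values were quantile-normalised because the upper quartiles differed by 0.15. PRDM2 KD and GFP control were compared by limma 3.58.1 under R 4.3.3 (lmFit, eBayes, two-sided, no block) over 45033 probe sets. The p-values were adjusted by Benjamini-Hochberg and called under 0.05. The procedure was tested on simulated data with independent noise of the same size for every probe set. That setting lacks the likeness between arrays seen here, so it checks the code and not the behaviour on these arrays. Gene lists were counted by the brightest probe set per gene (18192 genes). Each SE is that of the limma fit, moderated by the spread of other probe sets. Precision is limited by having 3 arrays in each group.

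The members, lists and named genes were chosen with earlier results of these data known. All members are named, array by array where a probe set reads 64 units or more. The rule adds the 3 genes most like such a member that spans 1 log2 unit, and per list the 3 largest differences among genes at 64 units or more; Prdm2, Myod1, Myog and Des are always named. As a check of pairing, the deviations of same-numbered arrays from their group means were correlated. They gave 0.34, 0.59 and 0.66, all above 0.1, so the numbers were read as pairs, from the data and not from the labels. These 3 correlations are tied, as the near-identical arrays numbered 2 enter both group means. The main fit did not use the pairs. For the brighter Ptger4 and Hpgd probe sets its SE was 0.18 and 0.42, against 0.10 and 0.23 with the replicate block. Alternatives were other scalings, offsets of 1 and 64, a filter on dim probe sets, gene-level values, other eBayes settings, array weights, the replicate block and leaving out arrays.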

Additional observations from a re-analysis of the deposited data

How the results depend on the processing

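The count of prostaglandin probe sets past the threshold was 0 in all fits but 1, that with both arrays numbered 2 left out and the replicate block, where 1 was higher (Ptgs2). Leaving out 1 array at a time gave 0 prostaglandin probe sets each time, but 0 to 120 higher and 0 to 118 lower over all probe sets, the 120 and 118 without GFP control replicate 2. With both arrays numbered 2 left out, 25 were higher and 32 lower over all probe sets, and with the replicate block as well 405 and 312. With the replicate block on all 6 arrays the count was 0, as without it. The 1 call of Ptgs2 came only with the block. With both arrays numbered 2 left out and no block, 0 prostaglandin probe sets passed. Among genes that release arachidonic acid, 2 were called higher without GFP control replicate 2. The brighter Ptgs2 probe set stayed above 0 in all 17 alternatives, from 1.04 with an offset of 64 to 2.44 with both arrays numbered 2 left out, and was 1.17 without PRDM2 KD replicate 1. The brighter Ptger4 probe set ranged from 0.05 without GFP control replicate 3 to 0.39, and that of Hpgd from 0.06 without PRDM2 KD replicate 3 to 0.71 without PRDM2 KD replicate 1. Of the 20 probe sets, 12 kept their sign in every alternative and 8 turned it in at least 1, including the dimmer Ptger4 probe set without GFP control replicate 1. Readings under 16 units limit what can be said of Ptges, Ptger1, Ptger2 and Ptgfr.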
